A study of Mus musculus with 10 samples.

Results

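Amphiregulin, epiregulin, betacellulin, epigen, heparin-binding EGF-like growth factor, transforming growth factor alpha, neuregulin 1 and neuregulin 4 are the growth factors examined here, through their genes Areg, Ereg, Btc, Epgn, Hbegf, Tgfa, Nrg1 and Nrg4. The 8 genes were taken by name from the EGF family, out of 36047 annotated genes with deposited values. They were measured by poly-A RNA sequencing in hepatic stellate cells of the mouse, which store vitamin A and lie along the liver sinusoids. The Areg group (5 libraries) came from cells given recombinant mouse Areg at 500 ng/mL for 4 h, and the control group (5 libraries) from cells kept for the same 4 h without it. In both groups the cells were described as quiescent, came from male C57BL/6 mice, had been cultured for 5 h beforehand and were in starving medium during the 4 h. The agent was a protein, whereas the libraries measured the RNA of the cells. Nothing in the labels ties the libraries to separate cultures or animals. The p-values therefore measure how far these libraries spread, and that spread may be technical.

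All of these growth factors are made as precursors anchored in the cell membrane. Proteases of the ADAM family can cut the precursors and release the soluble ligand, which binds receptors of the ErbB family on the same cell or on its neighbours. Areg, Epgn and Tgfa bind the EGF receptor, Ereg, Btc and Hbegf bind both the EGF receptor and Erbb4, and the neuregulins do not bind the EGF receptor directly. In many epithelial and mesenchymal cells, active EGF receptor signalling through the kinase ERK raises the RNA of some of these ligands, and this is known as autoinduction. In the liver the ligands are best known from regeneration and wound repair, and Nrg4 is best known as a factor that brown fat secretes and that acts on hepatocytes.

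The family is defined by the EGF-like module, in which 6 cysteines pair into 3 disulfide bonds. The coding bases of this module are shown for 7 of the genes because its spacing separates the neuregulins from the other ligands. They were read from the GENCODE M21 transcript named on each line and are given 5′ to 3′ on the coding strand, with the 6 cysteine codons in capitals.
Areg-201, chr5:91143614-91144364, plus strand: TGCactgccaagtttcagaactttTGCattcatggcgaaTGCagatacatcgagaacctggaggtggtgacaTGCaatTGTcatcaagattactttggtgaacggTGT
Ereg-201, chr5:91088496-91089111, plus strand: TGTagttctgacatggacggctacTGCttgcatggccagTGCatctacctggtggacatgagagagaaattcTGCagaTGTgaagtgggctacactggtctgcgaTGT
Btc-201, chr5:91362421-91366197, minus strand: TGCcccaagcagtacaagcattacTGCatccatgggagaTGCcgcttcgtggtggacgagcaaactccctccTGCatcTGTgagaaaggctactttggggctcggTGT
Epgn-201, chr5:91031152-91032237, plus strand: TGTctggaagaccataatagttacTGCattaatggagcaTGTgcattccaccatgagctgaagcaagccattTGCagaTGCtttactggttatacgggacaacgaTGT
Tgfa-201, chr6:86263200-86269960, plus strand: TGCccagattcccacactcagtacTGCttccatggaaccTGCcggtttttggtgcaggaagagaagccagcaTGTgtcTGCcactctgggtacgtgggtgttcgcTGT
Nrg1-203, chr8:31837698-31849398, minus strand: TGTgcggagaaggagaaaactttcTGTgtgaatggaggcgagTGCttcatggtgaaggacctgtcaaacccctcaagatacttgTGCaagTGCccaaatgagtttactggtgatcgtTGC
Nrg4-213, chr9:55242177-55280969, minus strand: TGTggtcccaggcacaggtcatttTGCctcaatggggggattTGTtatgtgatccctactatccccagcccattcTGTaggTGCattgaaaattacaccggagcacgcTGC
Coordinates are those of the mouse build GRCm38 and run from the first to the last base, across 1 intron in each gene. The module spans 108 bases in Areg, Ereg, Btc, Epgn and Tgfa, with 4 codons between the second and the third cysteine and 10 between the third and the fourth. It spans 120 bases in Nrg1, with 5 and 13 codons at these places, and 111 bases in Nrg4, with 5 and 10. In all 7 genes the intron falls at the same place, 31 bases before the end of the module. The other 3 gaps, of 7, 1 and 8 codons, were the same in all 7. Hbegf-201 has the spacing of the first 5 genes.

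Areg libraries held 14365027 to 20057962 estimated counts and control libraries 10125184 to 17566891, so the control values rest on fewer reads. On the first principal component, controls 3 and 4 stood apart at 38.9 and 25.0, while the other 8 libraries lay between -14.3 and 0.8. The stellate cell label was checked against 12 markers such as Lrat and Des. All 12 were detected, and their summed level, most of it from Dcn, was 6271 to 6460 TPM (a level per transcript length, scaled to the same total in each library) in Areg libraries and 6360 to 6722 TPM in control libraries. In the test described below 4 of the 12 fell, Cygb (log2 fold change -0.50), Lrat (-0.47), Ngfr (-0.33) and Lhx2 (-0.32), and 0 rose (0 also at an unadjusted p under 0.05). The part of this fall in the ligand values was not tested. RNA of other liver cells was also present. Summed endothelial markers reached 2444 to 2542 TPM in Areg libraries and 2459 to 2816 TPM in control libraries, hepatocyte markers 1422 to 1796 TPM and 1261 to 1925 TPM, and macrophage markers 650.4 to 706 TPM and 658 to 721 TPM, and these 3 pairs of ranges overlapped. Smooth muscle and portal fibroblast markers also overlapped, at 205 to 235 TPM in Areg libraries and 188 to 206 TPM in control libraries. Gene by gene, 2 of 6 hepatocyte markers rose in the test described below, Fabp1 (log2 fold change 0.39) and Cyp2e1 (0.23). Cd14 (0.26) rose among 7 macrophage markers and Tagln (0.18) among 6 tested smooth muscle and portal fibroblast markers. In these lists 0 fell, and of 6 endothelial markers 0 were called. Over all tested genes 8.34% rose. Of the lymphocyte markers, 6 of 7 averaged under 1 TPM, and Ptprc, which all leukocytes share, held most of the summed 11.6 to 14.7 TPM in Areg libraries and 10.5 to 18.2 TPM in control libraries. The mast cell and basophil markers Cpa3, Mcpt4 and Mcpt8 were at 0 in all 10 libraries, and their list of 6 with neutrophil genes summed to at most 3.25 TPM. The cholangiocyte list was higher with Areg, at 102 to 119 TPM against 48.3 to 59.3 TPM, through Spp1, and Krt7, Epcam and Cldn7 averaged under 1 TPM. The mesothelial list was also higher, at 175 to 250 TPM against 131 to 154 TPM, through the keratin genes Krt8 and Krt18, and Msln and Upk3b averaged under 1 TPM. The part of other cells in the ligand values was not tested. In such bulk samples, fewer cells of a type and less RNA per cell cannot be told apart.

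Epiregulin RNA was the most abundant of the family in either group. Ereg averaged 310.1 ± 10.2 TPM in Areg libraries and 202 ± 29.4 TPM in control libraries (SD, n = 5 each). Tgfa followed at 77.3 ± 5.72 TPM with Areg and 71.0 ± 4.34 TPM in controls. Hbegf came next at 52.9 ± 6.36 TPM with Areg and 37.8 ± 4.61 TPM in controls. Areg itself was in the fourth place, at 38.3 ± 3.84 TPM with Areg and 19.4 ± 2.59 TPM in controls. These 4 genes kept this order in every library, with no overlap between neighbours within a group.

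The remaining genes were expressed at low levels. Nrg1 averaged 8.92 ± 0.590 TPM in Areg libraries and 8.91 ± 0.762 TPM in control libraries. Btc averaged 3.76 ± 0.350 TPM with Areg and 2.15 ± 0.227 TPM in controls, and Nrg4 1.58 ± 0.435 TPM with Areg and 2.93 ± 0.419 TPM in controls. Epgn was lowest, at 1.37 ± 0.774 TPM with Areg and 1.11 ± 0.308 TPM in controls. Btc stood above Nrg4 in all 5 Areg libraries and below it in all 5 control libraries. The margin was narrow in control 4, at 2.44 TPM for Btc and 2.50 TPM for Nrg4, on 45 and 26 estimated counts. The ranges of Nrg4 and Epgn overlapped in the Areg group, where Nrg4 was the higher of them in 4 of 5 libraries, and no other neighbours in either order overlapped.

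**Figure D1:**
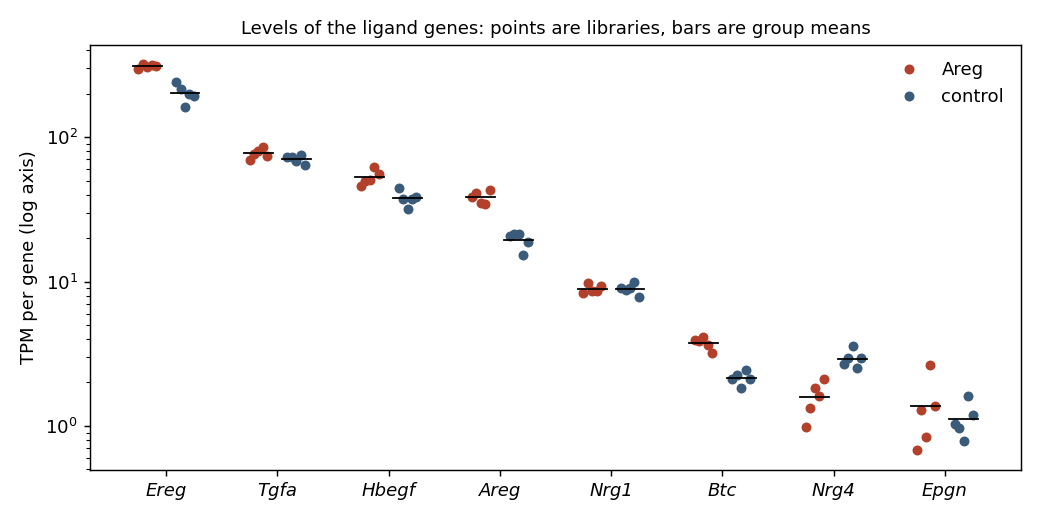
Level of each ligand gene in TPM per library on a log axis, with Areg libraries left of control libraries for each gene. Ereg lies above all other ligand genes in all 10 libraries, and Btc and Nrg4 change places between the groups.

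The summed level of the 8 genes was 494 ± 19.8 TPM in Areg libraries and 345 ± 35.7 TPM in control libraries. Ereg supplied 62.8 ± 0.925% of this sum with Areg and 58.2 ± 2.68% in controls. Areg supplied 7.76 ± 0.849% with Areg and 5.68 ± 1.01% in controls, and Tgfa 15.6 ± 0.770% with Areg and 20.7 ± 1.86% in controls. The share of Tgfa was lower in every Areg library than in any control library, and that of Ereg was higher. The share of Areg overlapped, with control 3 at 7.19% above Areg libraries 3 and 4 at 7.15% and 6.62%. The share of Hbegf, 10.7 ± 0.960% with Areg and 10.96 ± 0.548% in controls, overlapped between the groups.

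Areg for 4 h was accompanied by more RNA of Areg itself, Ereg, Btc and Hbegf and by less RNA of Nrg4, while Tgfa, Epgn and Nrg1 did not pass the test. All 8 genes passed the filter on low counts. At an adjusted p under 0.05 in edgeR's quasi-likelihood test over 13362 genes, 4 of the 8 rose and 1 fell, where 16.7% of all tested genes were called, 8.34% rising and 8.32% falling. Of all called genes, 50.04% were higher with Areg in this test and 37.6% on the log2(TPM + 1) scale, and 58.3% without the filter on low counts. The groups did not overlap for the same 5 genes, and for 14.7% of all tested genes, which were higher with Areg for 7.64% and lower for 7.06%. The median log2 fold change was 0.32 over the 8 genes and -0.01 over all tested genes. In the following, CPM is the gene's count relative to the library size, which was scaled by edgeR's TMM factors, and fold changes are Areg over control on the log2 scale.

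Areg, the gene of the stimulating growth factor, had 24.9, 26.9, 22.5, 22.6 and 28.4 CPM in Areg libraries 1 to 5 and 12.3, 13.4, 14.4, 10.04 and 11.9 CPM in controls 1 to 5. The lowest Areg library, replicate 3, lay well above the highest control, replicate 3. The mean was 25.1 ± 2.59 CPM with Areg and 12.4 ± 1.64 CPM in controls (SD, n = 5 each), a 2.02-fold difference, or 1.02 ± 0.0956 in log2 fold change (SE, adjusted p = 5.502e-06 in edgeR). This was the largest rise among the 8 genes. The gene lies on chromosome 5 from 91139599 to 91148432 on the plus strand and has 1 annotated transcript, Areg-201, of 6 exons.

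Ereg had 728, 803, 752, 796 and 768 CPM in Areg libraries and 549, 514, 406, 497 and 475 CPM in controls. Control 3 was the lowest and control 1 the highest of its group, and every Areg library exceeded all controls. Ereg encodes epiregulin, a ligand that binds the EGF receptor with low affinity but signals for a long time. It averaged 769 ± 30.9 CPM with Areg and 488 ± 53.2 CPM in controls, or 0.66 ± 0.0655 in log2 fold change (edgeR adjusted p = 9.897e-06). The fold was smaller than that of Areg, but at the level of Ereg it added the most RNA of any of the 8 genes, 109 TPM between the group means. Ereg occupies chromosome 5 from 91074622 to 91093646 on the plus strand, and its only annotated transcript has 5 exons.

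Btc had 6.65, 6.04, 5.60, 6.20 and 4.33 CPM in Areg libraries and 3.33, 2.94, 3.11, 4.18 and 3.52 CPM in controls. Areg library 5 and control 4 came closest to each other, and the groups did not overlap. Btc encodes betacellulin, first purified from a pancreatic beta cell tumour line. It averaged 5.76 ± 0.886 CPM with Areg and 3.42 ± 0.481 CPM in controls, a log2 fold change of 0.76 ± 0.144 (edgeR adjusted p = 0.00222). Its libraries rested on 79 to 119 estimated counts with Areg and 31.4 to 59.0 in controls, so its fold is known less exactly than those of Areg and Ereg. Btc lies on chromosome 5 from 91357261 to 91402994 on the minus strand.

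Hbegf had 59.3, 61.2, 65.6, 64.5 and 59.4 CPM in Areg libraries and 47.9, 47.9, 42.9, 51.7 and 46.3 CPM in controls. Again the groups did not overlap, and control 4 came closest to the Areg libraries. Hbegf encodes a ligand that binds heparan sulfate on cell surfaces as well as the EGF receptor. It averaged 62.0 ± 2.92 CPM with Areg and 47.3 ± 3.18 CPM in controls, a log2 fold change of 0.39 ± 0.0577 (edgeR adjusted p = 0.000412), the smallest of the 4 rises. Hbegf is on chromosome 18, from 36504927 to 36515805 on the minus strand.

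**Figure D2:**
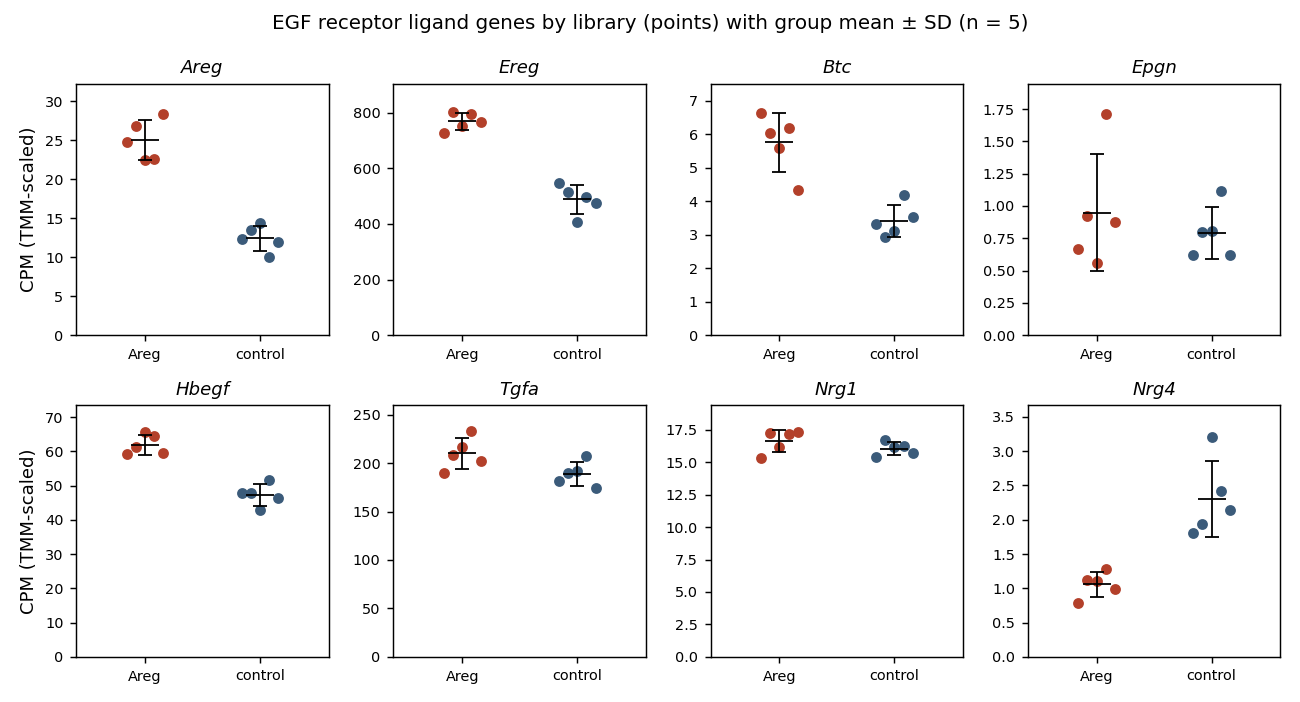
CPM of each ligand gene in every library, 1 panel per gene with its own linear axis from 0, Areg libraries left of control libraries, points for libraries, bars for the mean and the SD. The groups are separate for Areg, Ereg, Btc, Hbegf and, with Areg libraries lower, Nrg4, and they overlap for Epgn, Tgfa and Nrg1.

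Tgfa, which encodes transforming growth factor alpha, a high-affinity ligand of the EGF receptor, fell short of the threshold. It had 190.0, 209, 216, 233 and 202 CPM in Areg libraries and 181, 189.6, 191, 208 and 174 CPM in controls. Areg libraries 1 and 5 lay below the highest control, and controls 3 and 4 lay above the lowest Areg library. The means were 210.1 ± 16.04 CPM with Areg and 189 ± 12.6 CPM in controls, a log2 fold change of 0.15 with a 95% interval of 0.03 to 0.28 (edgeR adjusted p = 0.0776). With no filter on low counts it was called, at 0.17 (edgeR adjusted p = 0.0472). Without controls 3 and 4 the log2 fold change was 0.21 (edgeR adjusted p = 0.0131), and without control 4 alone it was 0.19 (0.0359). Without Areg library 1 it was also 0.19 (0.0440). Tgfa lies on chromosome 6 from 86195223 to 86275719 on the plus strand.

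Nrg1 encodes neuregulin 1, a ligand of the other receptors of the family. It had 15.3, 17.2, 16.1, 17.2 and 17.3 CPM in Areg libraries and 15.4, 16.7, 16.2, 16.3 and 15.7 CPM in controls, and the groups overlapped almost wholly. Its log2 fold change was 0.05 with a 95% interval of -0.10 to 0.20 (edgeR adjusted p = 0.664), so a rise of the size seen for Hbegf lay outside this interval. The gene spans chromosome 8 from 31814551 to 32884029 on the minus strand.

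Epgn encodes epigen, a ligand of low affinity. It had 12, 18, 11, 24 and 16 estimated counts in Areg libraries and 11, 12, 8, 12 and 9 in controls. Library 4 of the Areg group was the highest and the rest lay close to the controls once scaled for depth, at 0.555 to 0.922 CPM against 0.620 to 1.12 CPM. The log2 fold change was 0.25 with a 95% interval of -0.44 to 0.94 (edgeR adjusted p = 0.648), and without Areg library 4 it was -0.04. A difference as large as that of Btc or as small as none would both fall in this interval, so none was detectable at this depth. Epgn lies on chromosome 5 from 91027464 to 91035215 on the plus strand.

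Nrg4 encodes neuregulin 4, a ligand of Erbb4, and was the only one of the 8 genes that fell. It had 14, 22, 22, 18 and 18 estimated counts in Areg libraries and 32, 29, 32, 26 and 31 in controls, although the control libraries were on average the smaller ones. Scaled for library size, this was 0.782, 1.13, 1.11, 1.28 and 0.986 CPM with Areg and 1.80, 1.94, 3.21, 2.42 and 2.14 CPM in controls. Control 3 stood highest, and no Areg library reached the lowest control. The mean was 1.06 ± 0.186 CPM with Areg and 2.30 ± 0.559 CPM in controls, a log2 fold change of -1.10 ± 0.222 (edgeR adjusted p = 0.00339). On the log2(TPM + 1) scale, which compresses low levels, the log2 fold change was -0.62 (limma adjusted p = 0.0205), and without controls 3 and 4 it was -0.89 in edgeR (adjusted p = 0.0184). Nrg4 lies on chromosome 9 from 55220222 to 55326844 on the minus strand.

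**Figure D3:**
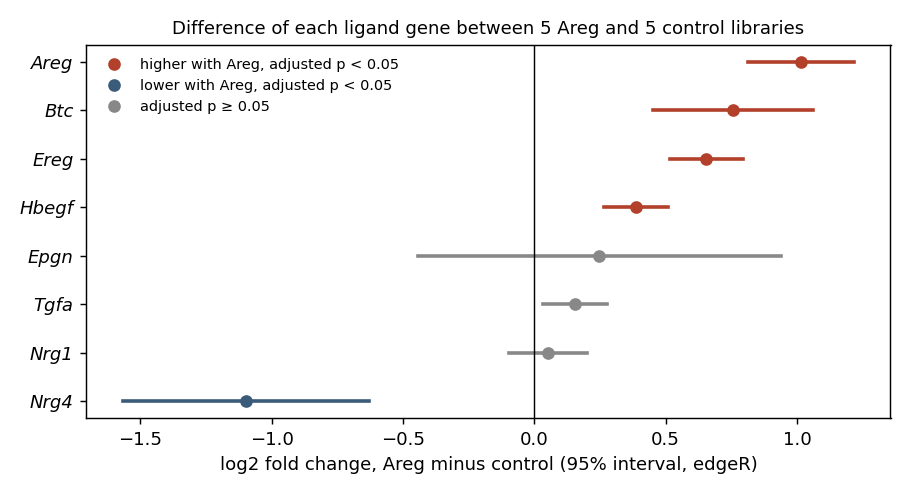
Log2 fold change of each ligand gene, Areg minus control, with its 95% interval from edgeR, by gene. The intervals of Areg, Ereg, Btc and Hbegf lie above 0, that of Tgfa, which was not called after adjustment, lies just above 0, that of Nrg4 lies below 0, and those of Epgn and Nrg1 include 0.

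Whether the ligand genes differed from each other in their response was tested on log2 ratios of their CPM within a library (0.1 CPM added to each). All 28 pairs were compared by a two-sided exact permutation test over the 252 arrangements of the libraries, whose smallest possible p is 0.00794, adjusted by Benjamini-Hochberg over the pairs. The ratio differed between the groups for 18 pairs. These include every pair with Nrg4, and the pairs share genes, so the 18 are not independent. The Areg to Hbegf ratio was higher in Areg libraries by 0.62 on the log2 scale, averaging -1.31 ± 0.207 with Areg and -1.93 ± 0.282 in controls (exact permutation, adjusted p = 0.0139). The Areg to Tgfa ratio was higher by 0.86, and the Ereg to Tgfa ratio by 0.51 (both 0.0139 adjusted in the exact permutation test). Hbegf rose relative to Tgfa by 0.24 and Ereg relative to Hbegf by 0.27, with the same adjusted p. Every ratio of another ligand gene to Nrg4 was higher with Areg, by 1.09 for Nrg1 to 2.05 for Areg.

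The 3 strongest rises could not be ranked by this test. The Areg to Ereg ratio averaged -4.94 ± 0.152 with Areg and -5.29 ± 0.303 in controls, a difference of 0.35 (exact permutation p = 0.0556, adjusted p = 0.0778). Without control 3 this difference was 0.47 (exact permutation, adjusted p = 0.0171). The ratios of Areg to Btc and of Ereg to Btc differed by 0.28 and -0.07 (exact permutation, adjusted p = 0.389 and 0.727). The Btc to Hbegf ratio was higher with Areg by 0.34 (exact permutation, adjusted p = 0.0494), and this call was lost in 12 of 13 alternatives. With TPM in place of CPM, the differences of Areg to Hbegf and of Ereg to Hbegf were 0.50 and 0.15 and were no longer called (exact permutation, adjusted p = 0.0556 and 0.133).

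Within the groups the 4 rising genes varied together in some pairs and oppositely in others. Over the deviations of the 10 libraries from their group means, Areg and Hbegf gave a Pearson r of -0.84 and Areg and Btc one of -0.73. Ereg and Hbegf gave 0.62, Btc and Hbegf 0.42, Ereg and Btc 0.06, and Ereg and Areg -0.30. These values describe 10 libraries that also share differences in depth.

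At the level of single transcripts, 46 transcripts of the 8 genes are annotated and 11 passed the filter on low counts. Among these 3 rose and 0 fell in edgeR's test over 36685 transcripts, of which 0.785% were called, 0.482% rising and 0.303% falling. At an unadjusted p under 0.05, too, 0 fell, and limma-voom also called 3. The 3 were Areg-201 (log2 fold change 1.02, edgeR adjusted p = 0.00597), Ereg-201 (0.66, 0.00434) and Hbegf-201 (0.37, 0.0302), and the call of Hbegf-201 was lost in 13 of 17 alternatives. Btc-201, the coding transcript that held 95.4 ± 4.32% of the Btc counts in Areg libraries and 95.7 ± 7.25% in controls, had a log2 fold change of 0.74 but an edgeR adjusted p of 0.117. kallisto's own estimation error does not enter this test, which makes it more certain of split transcripts than the data allow.

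The other tested transcripts were not called. Tgfa-201 held 99.8 ± 0.0922% of the Tgfa counts in Areg libraries and 99.8 ± 0.136% in controls, with a log2 fold change of 0.16 (edgeR adjusted p = 0.334). Hbegf-203, a transcript with a retained intron, had 10.7, 22.1, 9.94, 46.7 and 47.5 estimated counts with Areg and 21.7, 4.23, 2.56, 0 and 12.6 in controls. These values overlapped, and the log2 fold change of 1.53 had a 95% interval of -0.32 to 3.39 (edgeR adjusted p = 0.506). Epgn-201 held 73.1 ± 15.6% of the Epgn counts with Areg and 74.2 ± 21.8% in controls, with the remainder on the second coding transcript, Epgn-202.

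Nrg1 has 18 annotated transcripts, and its counts were spread over many. Nrg1-203 took 38.4 ± 3.81% of them in Areg libraries and 40.4 ± 9.55% in controls, and Nrg1-213 took 20.4 ± 8.16% with Areg and 24.6 ± 7.13% in controls. Nrg1-202 took 10.1 ± 7.44% with Areg and 12.8 ± 10.7% in controls, Nrg1-210 took 10.8 ± 10.8% with Areg and 10.7 ± 10.2% in controls, and Nrg1-206 took 7.64 ± 10.6% with Areg and 2.71 ± 3.72% in controls. Nrg1-203 and Nrg1-213 begin at bases 32009109 and 32009451 of chromosome 8. Nrg1-217 and Nrg1-218, the transcripts that begin at 32883862 and 32884029, far upstream, were at 0 in all 10 libraries. The share of a transcript within its gene was compared for 10 transcripts, 5 of Nrg1 and 5 of Nrg4, and none differed between the groups (two-sided exact permutation test, smallest p = 0.206, adjusted p 0.873 to 0.968).

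No single Nrg4 transcript passed the filter, so the fall of Nrg4 rests on the sum over its 13 annotated transcripts. The coding transcript Nrg4-213 had 1.68, 0, 0, 14.6 and 0 estimated counts in Areg libraries and 7.26, 15.9, 24.9, 13.3 and 6.47 in controls. It was at 0 in 3 of 5 Areg libraries and in no control, and Areg library 4 lay within the control range. Its share of the gene's counts was 18.6 ± 35.3% with Areg and 45.4 ± 24.0% in controls and did not pass the test (exact permutation p = 0.206, adjusted p = 0.873). The share differed by -26.8 percentage points, by -42.4 without Areg library 4 (adjusted p = 0.238 in the exact permutation test) and by -14.1 without controls 3 and 4. The processed transcript Nrg4-209 held 31.5 ± 18.1% with Areg and 21.1 ± 24.2% in controls. Nrg4-207, a target of nonsense-mediated decay by its annotation, held 17.3 ± 14.3% with Areg and 14.2 ± 5.60% in controls. Nrg4-210 held 17.001 ± 20.3% with Areg and 6.88 ± 9.40% in controls, and Nrg4-211 held 5.24 ± 4.96% with Areg and 5.60 ± 8.80% in controls.

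**Figure D4:**
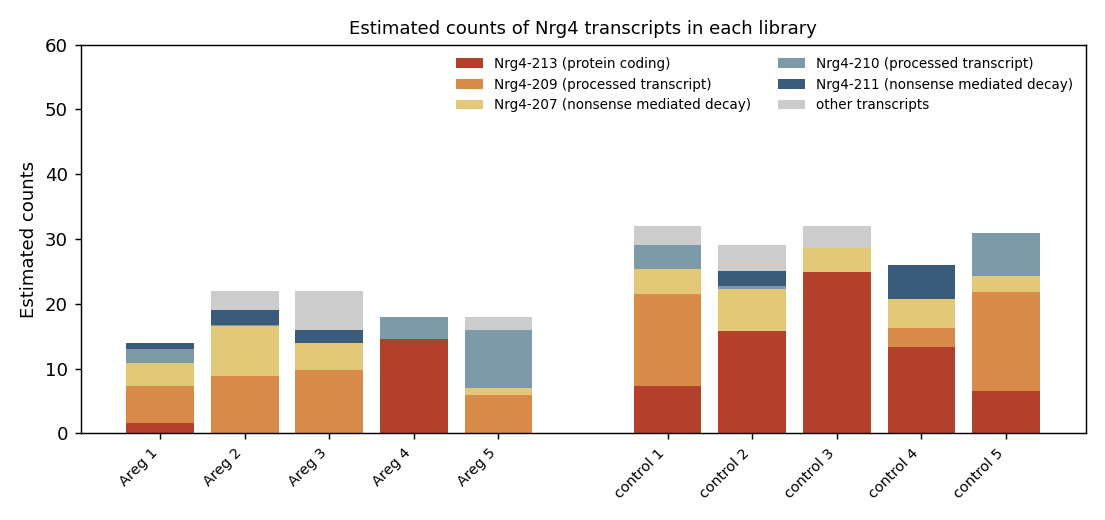
Estimated counts of the Nrg4 transcripts in each library, Areg libraries left of control libraries, stacked on a linear axis from 0. The stacks reach 14 to 22 counts with Areg and 26 to 32 in controls, and Nrg4-213 is at 0 in Areg libraries 2, 3 and 5.

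Nrg4 is also the only one of the 8 genes whose span overlaps other annotated genes with deposited values. Annotated genes without deposited values were not searched. Its exons share 166 bases with Fbxo22 in Nrg4-213 and in Nrg4-209 and 202 bases in Nrg4-207, on the opposite strand. The strand setting of the counting is not given in the sources used here, so reads in the shared bases cannot be assigned to either gene with certainty. Fbxo22, a subunit of a ubiquitin ligase, had 28.5 ± 2.10 CPM with Areg and 26.1 ± 2.24 CPM in controls, a log2 fold change of 0.12 (edgeR adjusted p = 0.252).

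Areg, Ereg, Btc and Epgn lie together on chromosome 5, where the stretch from the start of Ereg to the end of Btc covers 328373 bases. Within 500000 bases on either side of it, 19 annotated genes had deposited values and 12 were tested, 4 of them the ligand genes. Of the other 8, 3 rose and 0 fell at the same threshold (0 also at an unadjusted p under 0.05). Over all tested genes, 8.34% rose and 8.32% fell. The 3 that rose in this stretch were all CXC chemokine genes, whose products attract neutrophils. Cxcl1 averaged 3985 ± 272 CPM with Areg and 2689 ± 326 CPM in controls, a log2 fold change of 0.57 (edgeR adjusted p = 0.000178). Cxcl3 had a log2 fold change of 0.28 (0.0104) and Cxcl5 one of 0.23 (0.0390). Cxcl2 had 0.30 (0.0845), and Rassf6 0.47, Pf4 -0.08, Mthfd2l 0.02 and Parm1 -0.05, none of which was called by edgeR. Among the 12 tested genes, Areg, Btc and Ereg had the largest log2 fold changes, and Epgn, their neighbour beyond Ereg, was not called. They were not tested as a group.

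**Figure D5:**
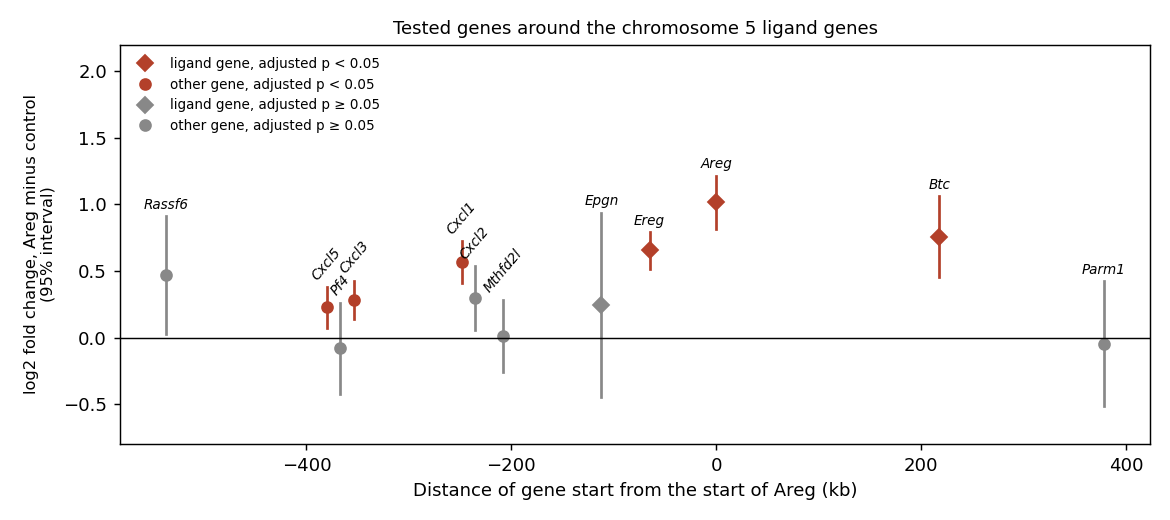
Log2 fold change, Areg minus control, with its 95% interval for the 12 tested genes around the ligand genes of chromosome 5, against the distance of the gene start from that of Areg in kilobases. Red marks genes with an edgeR adjusted p under 0.05 and diamonds mark ligand genes; Areg, Btc, Ereg, Cxcl1, Cxcl3 and Cxcl5 are red.

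The bases before the start of Areg and of Btc are shown because both genes rose. They come from RefSeq promoter windows of GRCm38.p6, and each line gives the 250 bases up to the start, 5′ to 3′ on the gene's strand. Windows of 5 of the 8 genes (Areg, Btc, Epgn, Tgfa and Nrg4) were searched for motifs. That of Hbegf was left out of the search, and Ereg and Nrg1 had no window. Capitals mark the cAMP response element TGACGTCA, its core TGACG or CGTCA and the TATA box.
Areg, chr5:91139349-91139598, plus strand: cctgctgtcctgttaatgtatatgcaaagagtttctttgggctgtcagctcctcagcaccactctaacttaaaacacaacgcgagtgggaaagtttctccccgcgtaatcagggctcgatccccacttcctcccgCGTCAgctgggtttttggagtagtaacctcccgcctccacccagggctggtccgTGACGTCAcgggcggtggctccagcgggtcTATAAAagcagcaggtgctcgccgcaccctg
Btc, chr5:91402995-91403244, minus strand: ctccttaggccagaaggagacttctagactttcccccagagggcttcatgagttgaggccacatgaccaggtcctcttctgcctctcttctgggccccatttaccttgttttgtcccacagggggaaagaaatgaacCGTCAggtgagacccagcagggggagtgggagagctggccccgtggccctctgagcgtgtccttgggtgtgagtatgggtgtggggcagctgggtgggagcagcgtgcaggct
The window of Areg holds TGACGTCA at -61 to -54 from the start, which 1.56% of all 32536 windows hold, a further core CGTCA at -115 to -111, and TATAAA at -31 to -26. Btc holds the core alone, at -113 to -109, and Epgn, which was not called, holds it at -101 to -97 and TATAAA at -86 to -81. The Epgn positions count from the RefSeq start at 91027517, which lies 53 bases downstream of the GENCODE gene start given above. The core is in 17.9% of all windows of this length and TATAAA in 12.3%. Motifs were searched on both strands, and the core also counts inside the full element. The Areg window also holds an ETS-like GGAAGT on the opposite strand at -126 to -121, found in 19.8% of windows. The NF-kappaB-like motif (GGG, then 5 bases of any kind, then CC), which 46.0% of windows hold, is in those of Areg, Btc, Tgfa and Nrg4. The Nrg4 window counts from the RefSeq start at 55283625, which lies 43219 bases downstream of the GENCODE gene start. AP-1 (TGANTCA), TEAD (ACATTCC) and the CArG box, in 6.73%, 3.26% and 1.48% of all windows, were in none of the 5. A match describes letters and is not evidence of a bound factor.

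Other genes of the pathway were counted from lists. Of the receptors, Egfr, which encodes the receptor of Areg, had 284 ± 8.72 CPM with Areg and 249 ± 17.1 CPM in controls, a log2 fold change of 0.19 (edgeR adjusted p = 0.0173). Of the 3 receptor genes tested, the 2 others fell. Erbb4, the receptor that Nrg4 binds, had 6 counts in all Areg libraries together and 1 in all controls and was not tested. The remaining ligand genes Egf, Nrg2 and Nrg3 did not pass the filter on low counts. Egf was at 0.369 ± 0.143 CPM with Areg and 0.774 ± 0.263 CPM in controls.

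Of 11 genes for sheddases, which release the ligands from their precursors, and for their helpers and an inhibitor, 2 rose, 1 fell and 8 were not called. The inhibitor gene, Timp3, had a log2 fold change of 0.15 (edgeR adjusted p = 0.0507). The proteases Adam19 (log2 fold change 0.57) and Adam9 (0.16) rose and Frmd8 (-0.39), a partner of the iRhom proteins, fell, with edgeR adjusted p of 0.000423, 0.0164 and 0.000787. Adam17, the main sheddase of Areg, had a log2 fold change of 0.03 (edgeR adjusted p = 0.745), with a 95% interval of -0.08 to 0.13. Of 18 restrainers of the receptor and its signal, 9 rose and 0 fell (0 also at an unadjusted p under 0.05), with a median log2 fold change of 0.19. Those with the smallest p were the ERK phosphatase gene Dusp5 (0.67), Errfi1 (0.64), whose product binds and inhibits the receptor kinase, Socs3 (0.52) and the Sprouty gene Spry4 (0.38). Of 15 early ERK-dependent genes, 4 rose, 1 fell and 10 were not called, with a median of 0.03. The transcription factor genes Egr2 (0.69), Egr3 (0.93), Egr1 (0.37) and Klf6 (0.24) rose, and Klf4 (-0.21) fell.

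Among 11 core proteins that can carry heparan sulfate, to which Hbegf and Areg bind, 2 rose and 4 fell, with a median of -0.03. Perlecan's gene Hspg2 (log2 fold change -0.48), the agrin gene Agrn (-0.36) and the syndecan gene Sdc3 (-0.25) fell, and the syndecan gene Sdc4 (0.29) rose. Among 6 tested genes of ligand trafficking, Cd81 (-0.18) and Sec24d (-0.15) fell and 0 rose, although at an unadjusted p under 0.05 Cnih1 was higher (0.11, edgeR adjusted p = 0.158). All of these calls are edgeR's at an adjusted p under 0.05, and the lists were compared with the 16.7% called among all genes by count only.

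For each ligand gene that was called, the 2 genes most like it were taken by Pearson r of log2(CPM + 0.5) over the 10 libraries, among 9749 genes that averaged 5 CPM or more. Areg was most like Prelid3b (r = 0.98) and Raet1d (0.98), the gene of a stress-induced ligand seen by natural killer cells. Ereg was most like Inhba (0.996), which encodes a subunit of activin, and Samd5 (0.993). Within the groups, over deviations from the group means, Ereg and Inhba gave 0.97. These deviations include controls 3 and 4, which stood apart on the first principal component, and their part in this value was not tested. Btc was most like Btg2 (0.956), an antiproliferative gene, and Net1 (0.955). Hbegf was most like Mmp3 (0.990), the gene of stromelysin 1, and Errfi1 (0.986). Nrg4 was most like Icosl (0.977), which encodes a costimulatory ligand for T cells, and Foxk1 (0.974). Part of each r is the difference between the groups that the genes share, and each is a description of 10 libraries.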

How the data were processed

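Poly-A libraries were made with TruSeq chemistry, per the labels' protocols. Per transcript, the authors deposited kallisto's estimated counts and TPM (scaled to transcript length by the authors' kallisto run), with 118489 transcripts in each library, per the file headers. Versions kallisto 0.44.0 and bcl2fastq 2.19, DESeq2 and the build GRCm38.p6 are named in the submitters' processing notes. The sources used here give neither transcript set nor strand setting. Reads that fit several transcripts were divided among them by kallisto's estimation.

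Transcripts were joined to GENCODE M21 (116816 matched), and unmatched ones, with 0.736 to 0.778% of counts, were left out. Estimated counts were summed per gene and rounded. Total counts were 18157373 ± 2294365 per Areg library and 13600612 ± 3051315 per control library (SD, n = 5 each). No replicate pair agreed within sampling noise (3.74 to 50.4 chi-square units per degree of freedom). The groups were compared by edgeR 4.0.16 (R 4.3.3; robust quasi-likelihood test, TMM factors, filterByExpr with minimum count 10 and total 15, no covariates), with Benjamini-Hochberg adjustment over all tested genes or transcripts. In 1 run on simulated counts, most changes were recovered for genes and few for transcripts, and the share of false calls was above the threshold used. Ratios and transcript shares (mean of at least 5% in genes with at least 10 counts per library) were compared by exact permutation. Levels between genes were compared in TPM. The EGF-like module was searched in coding sequence rather than protein.

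The 8 genes, all lists and the motifs were chosen with earlier results of these data known. All 8 genes, their transcripts, the tested genes around them, up to 4 called genes per list and the 2 genes most like each called ligand gene are named. Adam17, Timp3, Klf4, Cnih1, Egf and Erbb4 were added after their values were seen. Values of 2 receptor genes are not reported here. Alternatives were other scaling factors, filters, DESeq2 1.42.0, limma 3.58.1 (voom, and log2(TPM + 1) and log2(TPM + 0.1)), a length offset, the replicate number as a block and each library left out. No batch is named in the labels.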

Additional observations from a re-analysis of the deposited data

How the results depend on the processing

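The rises of Areg, Ereg, Btc and Hbegf were called in all 21 alternatives, with log2 fold changes of 0.95 to 1.07, 0.59 to 0.70, 0.59 to 0.84 and 0.36 to 0.51. The fall of Nrg4 was called in all 20 that gave an adjusted p, at -1.18 to -0.62. The number of the 8 genes called was 5 in most alternatives, 4 with DESeq2, which gave Nrg4 no adjusted p, and 6 wherever Tgfa was called. Tgfa was called without a filter on low counts (0.17, adjusted p = 0.0472), with the replicate block (0.15, 0.0266) and without controls 3 and 4 (0.21). With single libraries left out it ranged from 0.12 to 0.19 and was called without Areg library 1 or control 4. Epgn ranged from -0.037 to 0.40 with single libraries left out. The number of genes called among all tested, 2226, was 1161 with the length offset, 856 on log2(TPM + 1) and 868 on log2(TPM + 0.1), and 1364 to 2314 with single libraries left out, the lowest without Areg library 2. Of the called genes, 50.04% were higher with Areg, against 37.6% and 37.4% on the TPM scales, 44.0% with upper-quartile factors and 58.3% without a filter on low counts. The cause was not tested.

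The labels do not say whether the replicate numbers pair the libraries. Correlations of same-numbered deviations were -0.06 to 0.19, which cannot exclude a pairing. Same-numbered libraries were each other's best match for replicates 2 and 4 but not for 1, 3 and 5. With the replicate block 0 of the 3 ligand transcripts were called. Their log2 fold changes were then 1.02 for Areg-201, 0.66 for Ereg-201 and 0.37 for Hbegf-201 (edgeR adjusted p = 0.0790, 0.0718 and 0.125). With single libraries left out, 2 to 3 were called. Over all transcripts the calls numbered 288, against 21 with the replicate block, 92 without a filter, 128 and 118 on the TPM scales, 168 without controls 3 and 4 and 40 to 182 with single libraries left out, so fewer calls were made across the whole test. Some transcripts that were not called turned sign. Nrg1-203 was 0.000367 with the replicate block and -0.13 to 0.059 with single libraries left out. Nrg1-202 was 0.023 on log2(TPM + 0.1) and -0.82 to 0.30 with single libraries left out. Nrg1-210 was -0.63 to 0.73 with single libraries left out and 1.66 without controls 3 and 4. With all libraries, the 95% intervals of Nrg1-202 and Nrg1-210 were -2.22 to 1.63 and -2.44 to 2.71, so their direction is undetermined. Epgn-201 was -0.064 to 0.33 with single libraries left out. The Ereg to Btc ratio was 0.0029 without Areg library 1 and at lowest -0.17 with others left out. Nrg4, Epgn and Btc rest on few counts, and depth limits their values.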
